A study of Mus musculus with 12 samples.

Results

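The 9 genes described here are transcription factors that mark the layers and the projection neurons of the neocortex, namely Tbr1, Fezf2, Cux1, Cux2, Rorb, Neurod1, Neurod2, Neurod6 and Bhlhe22. They were chosen by symbol, and each had 1 row among the 23282 gene rows of the count tables. The tables came from 12 RNAseq libraries prepared from striatum or cortex of WT mice and of R6/2 HD mice. R6/2 mice express exon 1 of the human HTT gene, with its CAG repeat expanded, from a transgene. HD mice were 8 weeks old before symptom onset (pre-symptomatic) and 13 weeks old after it (post-symptomatic), and WT mice had the same ages. Each of the 4 HD groups of stage and region had 2 libraries and each WT group had 1. Library preparation used a Lexogen QuantSeq kit, so reads come from the 3′ ends of polyadenylated transcripts and levels are not compared between genes. By Xist and Y-linked counts, replicate 1 of each HD group was male and replicate 2 female, so they came from different mice, while the WT libraries were female at 13 weeks and male at 8 weeks. WT age and sex therefore cannot be told apart, and each comparison of HD with WT sets both sexes against 1. Whether the 2 regions of one number were dissected from 1 mouse is not given in the labels, and p-values measure the spread between these few samples.

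Cortical projection neurons are glutamatergic and are specified layer by layer. Tbr1 is required for the identity of corticothalamic neurons of layer 6 and Fezf2 for that of subcerebral neurons of layer 5, whereas Cux1 and Cux2 mark upper-layer neurons and Rorb marks neurons of layer 4. Neurod1, Neurod2, Neurod6 and Bhlhe22 are basic helix-loop-helix factors that act during and after the exit of these neurons from the cell cycle, and Neurod2, Neurod6 and Bhlhe22 remain on in the mature cortex. The medium spiny neurons of the striatum are GABAergic and arise from another progenitor zone, and the striatum serves here as the tissue in which most of these factors are low.

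Promoter windows from 250 bases before to 50 bases after a start site were read for 8 of the 9 genes, in 10 windows (RefSeq, GRCm38.p6), and Bhlhe22 had no entry. The E-box CAGATG, the sequence bound by NeuroD factors, was searched on both strands. It lay in 2 of the 10 windows, against 17.2% of all 32851 windows of this length. Only the 2 windows with a match are shown, that of Neurod2 and the second one of Cux2, whose first window had no match. A link between the E-box and the levels of these genes was not tested. Capitals mark the E-box.
Neurod2, chr11:98329596-98329895, minus strand: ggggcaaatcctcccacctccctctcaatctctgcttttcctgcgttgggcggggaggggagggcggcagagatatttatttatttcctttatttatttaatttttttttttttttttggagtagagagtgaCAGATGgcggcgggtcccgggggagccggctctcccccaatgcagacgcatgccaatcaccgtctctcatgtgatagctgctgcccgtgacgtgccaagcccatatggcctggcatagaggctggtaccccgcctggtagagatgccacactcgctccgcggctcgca
Cux2, second start site, chr5:122047776-122048075, minus strand: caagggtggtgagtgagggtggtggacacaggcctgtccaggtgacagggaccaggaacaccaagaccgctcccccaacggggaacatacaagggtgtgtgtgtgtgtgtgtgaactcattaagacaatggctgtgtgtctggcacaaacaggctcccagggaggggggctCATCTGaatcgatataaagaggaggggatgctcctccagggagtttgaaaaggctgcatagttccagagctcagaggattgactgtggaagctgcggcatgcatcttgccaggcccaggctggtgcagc
The match began 118 bases before the start site of Neurod2 and 79 bases before the second start site of Cux2, where it lies on the opposite strand. The T-box half-site GGTGTGA and the ROR half-site AGGTCA were in none of the 10 windows, against 3.98% and 16.3% of all windows. A match is a run of letters in a window and not a measured binding site.

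Total counts lay between 8814386 and 12091201 per library. Values below are CPM, counts divided by the library size after scaling by TMM, a normalization that lines up the bulk of the genes between libraries. The precursor of ribosomal RNA, Rn45s, took 10.5% to 15.2% of the counts of HD libraries and 4.32% to 5.62% of those of WT libraries. The region labels were checked by Slc17a7, the vesicular glutamate transporter of cortical neurons, which lay between 310 and 826 CPM in cortex and between 2.70 and 89.7 CPM in striatum. Replicate 2 of the pre-symptomatic HD striatum stood apart from the other striatal libraries. Its 5 thalamic markers summed to 1140 CPM, against 50.3 to 81.9 CPM in the others, and its 8 oligodendrocyte markers to 19833 CPM, against 3183 to 6967 CPM. The WT striatum at 8 weeks was another library of interest here, with the highest Tbr1, Fezf2, Neurod2 and Neurod6 of the striatal libraries. Values without either library are given where they moved a call or a count most.

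The first comparison asked how far each factor set cortex apart from striatum over all conditions. Of the 9 factors, 7 were higher in cortex and none was lower, where 20.6% of all 14706 genes tested differed between the regions, 1773 higher and 1251 lower in cortex. The median log2 fold change of the 9 factors was 4.42, against -0.01 for all genes. All 9 factors passed the filter on low counts in every comparison. In this and all other results from whole tissue, fewer cells of a type and less RNA per cell cannot be told apart.

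The helix-loop-helix factors differed most between the regions. Neurod2, whose gene spans 98325415 to 98329648 of chromosome 11 (GRCm38, GENCODE M21, as are all gene positions here), ranged from 432 to 547 CPM in cortex with a median of 448 CPM. In striatum it ranged from 3.31 to 37.4 CPM with a median of 7.89 CPM, and the log2 fold change was 5.75 (SE 0.56, edgeR adjusted p = 0.000166). Neurod6 (chromosome 6, 55677822 to 55681263) ranged from 91.8 to 142 CPM in cortex and from 0.107 to 16.4 CPM in striatum, a log2 fold change of 5.07 (SE 0.71, edgeR adjusted p = 0.00139). The regions did not overlap for either gene, and the striatal library closest to cortex was the WT library at 8 weeks in both cases.

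Neurod1 (chromosome 2, 79452521 to 79456751), the family member best known from immature neurons and from dentate granule cells, also set the regions apart. It lay between 25.6 and 44.4 CPM in cortex and between 0.191 and 3.66 CPM in striatum, with a log2 fold change of 4.87 (SE 0.47, edgeR adjusted p = 6.43e-05). The annotation places Cerkl over Neurod1 on the same strand, and Cerkl had at most 6 counts in any library. Bhlhe22 (chromosome 3, 18054174 to 18057517), which acts with the repressor Prdm8, ranged from 45.3 to 78.5 CPM in cortex and from 1.05 to 5.70 CPM in striatum, a log2 fold change of 4.54 (SE 0.36, edgeR adjusted p = 1.94e-05). The 95% intervals of these 4 log2 fold changes overlapped one another, and the differences between them were not tested.

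The 2 deep-layer factors followed. Tbr1 (chromosome 2, 61802930 to 61814114) ranged from 104 to 210 CPM in cortex and from 2.13 to 26.4 CPM in striatum. Its log2 fold change was 4.42 (SE 0.35, edgeR adjusted p = 2.04e-05). Fezf2 (chromosome 14, 12342094 to 12348189) ranged from 38.6 to 94.2 CPM in cortex and from 1.49 to 8.64 CPM in striatum, a log2 fold change of 3.66 (SE 0.30, edgeR adjusted p = 1.57e-05). Every cortical library was above every striatal library for both genes.

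The upper-layer markers and Rorb were less regional. Cux2 (chromosome 5, 121856366 to 122050102) ranged from 13.7 to 25.2 CPM in cortex and from 2.67 to 9.25 CPM in striatum, with a log2 fold change of 1.94 (SE 0.25, edgeR adjusted p = 0.000184). Rorb (chromosome 19, 18930605 to 19111196), an orphan nuclear receptor, had a log2 fold change of 1.27 (SE 0.40, edgeR adjusted p = 0.0517), which did not pass the test. Its cortical libraries lay between 86.3 and 357 CPM, and its striatal libraries between 40.9 and 93.9 CPM apart from replicate 2 of the pre-symptomatic HD striatum, at 289 CPM. Without that library the Rorb log2 fold change was 1.66 (edgeR adjusted p = 0.00889) and 8 of the 9 factors were higher in cortex, and the log2 fold change of Neurod1 was 5.65. Rorb passed in 7 of 19 alternatives. These included DESeq2 (log2 fold change 1.25, adjusted p = 0.0165), a filter of 1 CPM in every library (edgeR adjusted p = 0.0469) and sex as a term (1.40, 0.0328). Rorb also passed without replicate 2 of the post-symptomatic HD striatum (log2 fold change 1.45, edgeR adjusted p = 0.0403) or of the post-symptomatic HD cortex (1.43, 0.0355). Without the WT striatum at 8 weeks 7 factors passed, Rorb had an adjusted p of 0.138, and the log2 fold change of Neurod2 rose to 6.22.

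Cux1 (chromosome 5, 136248135 to 136567490) had nearly equal levels in the regions. Its 6 striatal libraries lay between 71.4 and 91.5 CPM and its 6 cortical libraries between 62.7 and 146 CPM, and the log2 fold change of 0.28 (SE 0.13) did not pass the test (edgeR adjusted p = 0.140, 95% interval 0.01 to 0.56). Cux1 is a large gene with 9 annotated coding transcripts, whose 3′ ends fall into 5 groups more than 1000 bases apart and span 65099 bases. One set of its transcripts encodes CASP, a Golgi protein without the homeodomain, and counts by symbol do not tell these transcripts apart. The transcripts of Neurod1, Neurod2, Neurod6 and Bhlhe22 have 1 annotated 3′ end each.

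**Figure D1:**
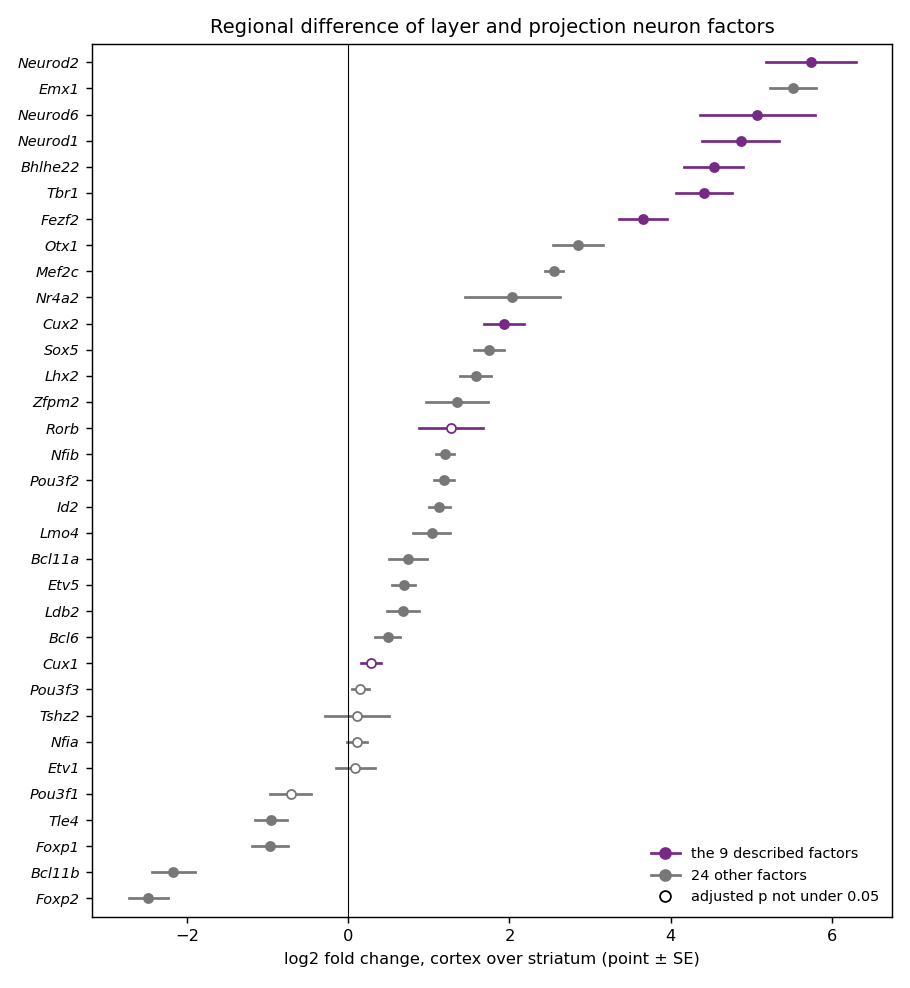
Log2 fold change of cortex over striatum (points) with its standard error (bars) for the 9 described factors (purple) and 24 other layer and projection neuron factors (grey), fitted over 12 libraries; open points have an adjusted p that is not under 0.05. Neurod2 is at the top of the 33 genes at 5.75, Cux1 lies near 0 at 0.28, and Foxp2 is lowest at -2.49.

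Other factors of cortical layers were spread more widely. Of 25 listed, 16 were higher in cortex, 4 were lower and 5 did not pass the test, with a median log2 fold change of 0.74. Large differences were those of Emx1, a homeobox gene of the dorsal telencephalon (log2 fold change 5.52, SE 0.29, edgeR adjusted p = 2.16e-07), Otx1 (2.85, SE 0.31, 7.85e-05) and Mef2c (2.55, SE 0.11, 3.38e-08). The 4 that were lower in cortex, Foxp2, Bcl11b, Foxp1 and Tle4, are factors that medium spiny neurons also express. Among 14 partners and inhibitors of the helix-loop-helix factors, 5 were higher in cortex and 2 were lower. The partner of Bhlhe22, Prdm8, led with a log2 fold change of 5.05 (SE 0.37, edgeR adjusted p = 7.69e-06), followed by Hes1 (1.55, SE 0.18, 8.34e-05), the E protein Tcf4 (1.36, SE 0.08, 6.17e-07) and Cbfa2t3 (1.21, SE 0.14, 7.25e-05). Of 10 genes known as downstream of Tbr1, Fezf2 or Neurod2, 2 were higher and 4 were lower in cortex. Slc17a7 had a log2 fold change of 4.83 (SE 0.71, edgeR adjusted p = 0.00182), and Bcl11b (-2.17, SE 0.27, 0.000354), Reln (-1.12, SE 0.31, 0.0261) and Ephb1 (-0.84, SE 0.11, 0.000185) were lower. The call of Reln was lost, with an adjusted p between 0.0529 and 0.0855 when either post-symptomatic HD cortex library, replicate 1 of either HD striatum group or any of the 4 WT libraries was left out.

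**Figure D2:**
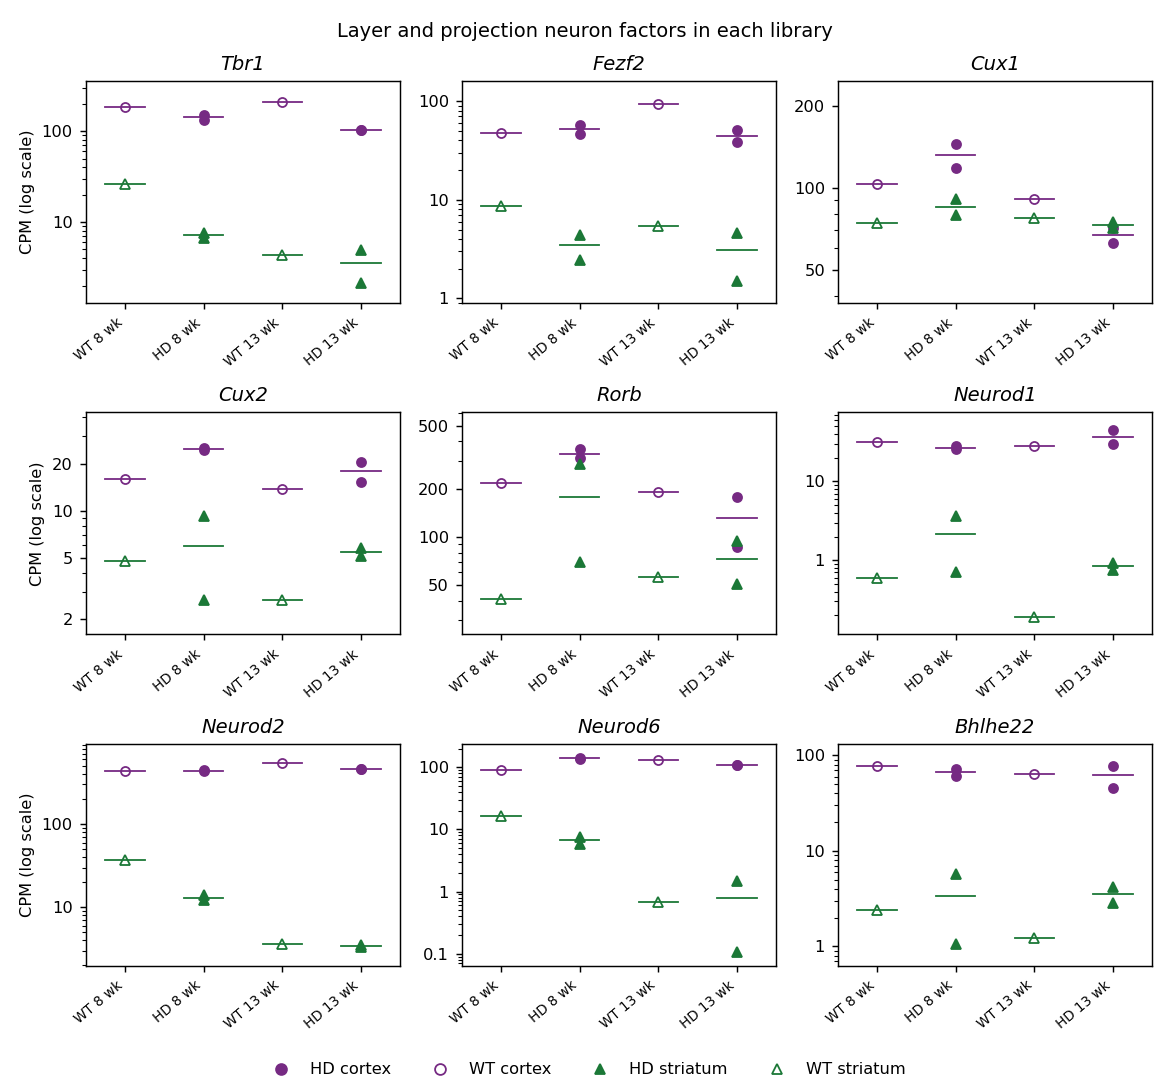
CPM on a log scale of each of the 9 factors in each of the 12 libraries, by genotype and age; circles are cortex, triangles striatum, filled HD and open WT, and lines are group means (1 or 2 libraries). The cortical libraries lie above the striatal ones in 7 panels, and in the panels of Cux1 and Rorb they overlap.

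The second comparison asked whether the factors changed in HD cortex after symptom onset. None of the 9 factors passed the test, where 0.593% of the 15337 genes tested did (91 genes, 5 higher and 86 lower after onset). At an unadjusted p under 0.05 there was 1 factor, Cux1, and 2083 of all genes, and DESeq2 called 1 factor, also Cux1. Of the 9 log2 fold changes 7 were negative, with a median of -0.36, while 49.2% of all genes were negative and their median was 0.00. The 2 post-symptomatic libraries were both below the 2 pre-symptomatic ones for 5 factors, both above for 2 and overlapped for 2, and such separation was found in 53.8% of all genes.

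Cux1 had the smallest adjusted p. It measured 71.4 and 62.7 CPM in post-symptomatic HD cortex and 118 and 146 CPM in pre-symptomatic HD cortex, against 91.5 CPM in WT cortex at 13 weeks and 104 CPM at 8 weeks. HD libraries were thus above WT at 8 weeks and below WT at 13 weeks. The log2 fold change between the HD stages was -0.98 (SE 0.18, 95% interval -1.38 to -0.58, edgeR adjusted p = 0.0508), just short of the threshold of 0.05. With alternative processing the size stayed between -1.12 and -0.82 and the adjusted p fell on either side, passing in 8 of 20 alternatives. It was 0.00107 without replicate 2 of the pre-symptomatic HD striatum, 0.00121 without replicate 1 of that group, 0.0493 without the WT striatum at 13 weeks and 4.02e-06 when the cortex libraries alone were fitted. It was between 0.298 and 0.525 when any HD cortex library was left out, and 0.0507 without the WT striatum at 8 weeks. DESeq2 gave an adjusted p of 0.00387. The difference between the change in HD cortex and the change in WT cortex was -0.80 on the log2 scale (SE 0.31, edgeR adjusted p = 1.0).

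Several marker lists moved in the same direction as Cux1 in HD cortex. The 16 cortical excitatory markers summed to 8691 and 9101 CPM after onset and to 21657 and 22541 CPM before, with 11 of 16 lower in both later libraries and none at 0, where 28.1% of all genes were lower in both. The list includes Neurod2 and Tbr1, and without them 10 of 14 were lower. WT cortex had 20580 CPM at 13 weeks and 24583 CPM at 8 weeks. The 8 astrocyte markers summed to between 2756 and 2818 CPM after onset and between 5010 and 5026 CPM before (7 of 8 lower), and the 8 markers of GABAergic interneurons between 414 and 428 CPM and between 1136 and 1235 CPM (7 of 8 lower). The 8 microglia markers summed to between 253 and 328 CPM after onset and between 365 and 429 CPM before (6 of 8 lower). The 8 oligodendrocyte markers lay between 2319 and 2644 CPM and between 2257 and 2567 CPM (3 of 8 lower). The part of these differences in the Cux1 values was not tested.

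**Figure D3:**
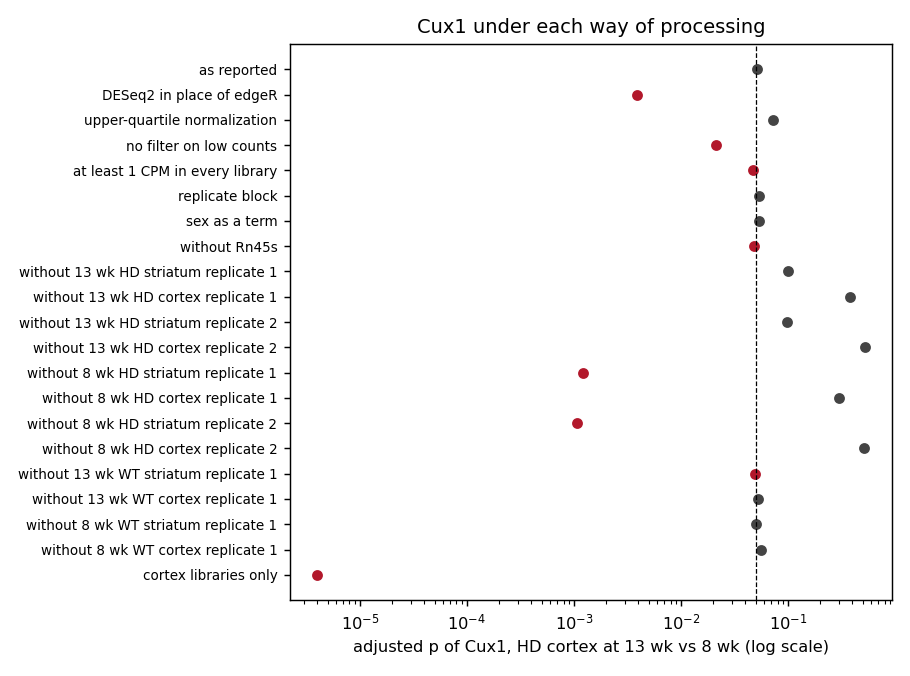
Adjusted p of Cux1 in post-symptomatic against pre-symptomatic HD cortex (log scale) as reported and under 20 alternatives; red points are under 0.05, the dashed line. The value runs from 4.02e-06 with the cortex libraries alone to 0.525 without replicate 2 of the post-symptomatic HD cortex.

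The other layer markers had wide intervals. Rorb measured 177 and 86.3 CPM after onset and 312 and 357 CPM before, with 192 and 219 CPM in WT cortex at 13 and 8 weeks. Its log2 fold change of -1.34 was larger than that of Cux1 and had an SE of 0.70 (95% interval -3.05 to 0.36, edgeR adjusted p = 0.479, and 0.240 without replicate 2 of the pre-symptomatic HD striatum). Cux2 measured 20.6 and 15.4 CPM after onset and 24.7 and 25.2 CPM before, with WT cortex at 13.7 and 15.9 CPM, and gave -0.47 (SE 0.45, edgeR adjusted p = 0.712). In Cux1, Cux2, Rorb and also Neurod6, both pre-symptomatic HD libraries were above both post-symptomatic ones and above both WT libraries. None of these factors passed the edgeR test between HD stages or against WT at 8 weeks in the fit of all libraries. The pattern was not counted over all genes, of which 28.1% were lower in both later HD libraries. HD and WT cortex at 8 weeks were apart for 75.1% of all genes.

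Of the deep-layer factors, Tbr1 measured 104 CPM in both post-symptomatic HD libraries and 153 and 134 CPM in the pre-symptomatic ones. WT cortex had 210 CPM at 13 weeks and 187 CPM at 8 weeks, so that all 4 HD libraries were below both WT libraries. The log2 fold change between HD stages was -0.46 (SE 0.27, 95% interval -1.06 to 0.13, edgeR adjusted p = 0.504). Fezf2 measured 50.6 and 38.6 CPM after onset, 57.9 and 46.0 CPM before, 94.2 CPM in WT cortex at 13 weeks and 47.7 CPM at 8 weeks. Its HD stages overlapped, with a log2 fold change of -0.22 (SE 0.41, edgeR adjusted p = 0.872), and only the WT library at 13 weeks lay apart.

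The helix-loop-helix factors were level or mixed in HD cortex. Neurod2 measured 455 and 463 CPM after onset and 433 and 442 CPM before, with 547 CPM in WT cortex at 13 weeks and 432 CPM at 8 weeks. Its log2 fold change of 0.07 had an SE of 0.15 and a 95% interval of -0.27 to 0.41 (edgeR adjusted p = 0.899). Neurod6 measured 108 and 110 CPM after onset and 142 and 138 CPM before, against 133 and 91.8 CPM in WT cortex at 13 and 8 weeks. The 2 stages did not overlap and the log2 fold change was -0.36 (SE 0.41, 95% interval -1.31 to 0.58, edgeR adjusted p = 0.766).

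Neurod1 measured 44.4 and 29.6 CPM after onset and 25.6 and 28.0 CPM before, with WT cortex at 28.5 and 31.3 CPM. The log2 fold change was 0.46 (SE 0.47, edgeR adjusted p = 0.731), and replicate 1 after onset was the highest of the 6 cortical libraries. Bhlhe22 measured 78.5 and 45.3 CPM after onset and 61.6 and 72.8 CPM before, with WT cortex at 64.2 and 78.5 CPM (log2 fold change -0.12, SE 0.54, edgeR adjusted p = 0.960). Its later libraries lay on both sides of the earlier ones. The 6 hippocampal markers, of which Prox1 marks dentate granule cells, summed to 27.7 and 43.3 CPM in those libraries and to 28.8 and 33.0 CPM before onset, and their part in the values of Neurod1 was not tested.

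When the 6 cortex libraries were fitted alone, which leaves 2 pairs to set the spread, 3 of the 9 factors passed the test in HD cortex and 2263 of all genes did. They were Cux1, Tbr1 (log2 fold change -0.46, edgeR adjusted p = 0.00766) and Neurod6 (-0.36, edgeR adjusted p = 0.0379). The log2 fold changes were nearly those of the fit of all libraries, and the estimate of the spread differed. On simulated counts 18% of the calls of this fit between HD stages were false, against 5.56% for the fit of all libraries. For HD against WT cortex the order was the other way. There 6.83% at 13 weeks and 8.33% at 8 weeks were false, against 17.1% and 17.5% for the fit of all libraries. The simulated WT library was made to vary like the HD libraries. Between HD stages, leaving out replicate 2 of the pre-symptomatic HD striatum from the fit of all libraries gave 1233 genes and 1 factor.

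The 9 factors' mean standardised log2 CPM over the 6 cortex libraries was used to rank 10648 other genes for likeness. The 5 highest Pearson correlations, between 0.976 and 0.982, were those of Bcas3, Thg1l, Pcmt1, 5031426D15Rik and Ankrd27. The mean does not stand for each factor, since the correlation of a factor with the mean of the other 8 ran from -0.36 for Neurod1 and -0.02 for Neurod2 to 0.78 for Rorb. These are descriptions over 6 libraries that share their groups and their scaling. With 10648 genes ranked over 6 libraries, chance alone can give correlations this high, and the likeness was not tested.

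Among the other genes of the pathway in HD cortex, 1 of the 25 other layer factors passed the test, where 0.593% of all genes did. Mef2c, an activity-regulated factor of excitatory neurons, measured 2089 and 1972 CPM after onset and 3512 and 4043 CPM before, and fell by 0.90 on the log2 scale (SE 0.16, edgeR adjusted p = 0.0480). That call was lost without any 1 of the 4 HD cortex libraries (adjusted p 0.341 to 0.537), without either post-symptomatic HD striatum library (0.0924 and 0.0927) and without the WT cortex at 8 weeks (0.0511). The 25 factors had a median of -0.26, and 19 of them were negative. None of the 14 partners and inhibitors and none of the 10 downstream genes passed. The smallest p-values were those of Cbfa2t3, a corepressor (log2 fold change -0.97, SE 0.25, edgeR adjusted p = 0.131), and Ephb1, an ephrin receptor (-0.77, SE 0.20, 0.125). Without replicate 1 of the pre-symptomatic HD striatum these were 0.00323 and 0.0126, and without replicate 2 of that group 0.00301 and 0.0118.

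The third comparison set HD cortex against WT cortex at each age. At 13 weeks none of the 9 factors passed the test, where 0.111% of all genes did (17 genes). At an unadjusted p under 0.05 edgeR gave 1 factor, Tbr1, and 1780 genes, and DESeq2 called 0 factors and 214 genes. The WT side of these tests is 1 library, which is assumed to vary like the HD groups. Tbr1 in HD cortex was at 0.495 times its WT level by group means, with a log2 fold change of -1.01 (SE 0.31, 95% interval -1.72 to -0.31, edgeR adjusted p = 0.260). It passed without replicate 1 or replicate 2 of the pre-symptomatic HD striatum (edgeR adjusted p = 0.0308 and 0.0272) and in the fit of cortex libraries alone (1.02e-05). Fezf2 was at 0.473 times its WT level (log2 fold change -1.08, SE 0.48, 95% interval -2.18 to 0.02, edgeR adjusted p = 0.442) and passed in the fit of cortex libraries alone (0.000357).

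These 2 factors of corticofugal neurons had the largest differences from WT at 13 weeks, and both of their HD libraries lay below the WT library. The log2 fold changes of Rorb (-0.54), Cux1 (-0.45), Neurod6 (-0.28), Neurod2 (-0.25) and Bhlhe22 (-0.05) were smaller, and those of Cux2 (0.39) and Neurod1 (0.38) were positive. HD and WT libraries were apart for 8 of the 9 factors, 6 lower and 2 higher, as for 75.6% of all genes.

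At 8 weeks, before symptoms, 0 of the 9 factors and 0% of all genes passed the edgeR test, with 0 factors and 1239 genes at an unadjusted p under 0.05. DESeq2 called 0 factors and 53 genes. The log2 fold changes lay between -0.39 for Tbr1 and 0.65 for Cux2, and 6 of the 9 were positive. Neurod6 (0.61, SE 0.51, 95% interval -0.58 to 1.80) passed in the fit of cortex libraries alone (edgeR adjusted p = 0.0129). The change with age in HD minus that in WT passed for 0 of the 9 factors and 0% of all genes by edgeR, with 1 factor, Cux1, and 548 genes at an unadjusted p under 0.05, and 0 factors and 19 genes called by DESeq2. For Tbr1 the difference of the changes was -0.63 (95% interval -1.66 to 0.40) and for Fezf2 -1.20 (-2.81 to 0.41). The intervals hold 0 as well as changes of more than 1 on the log2 scale.

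**Figure D4:**
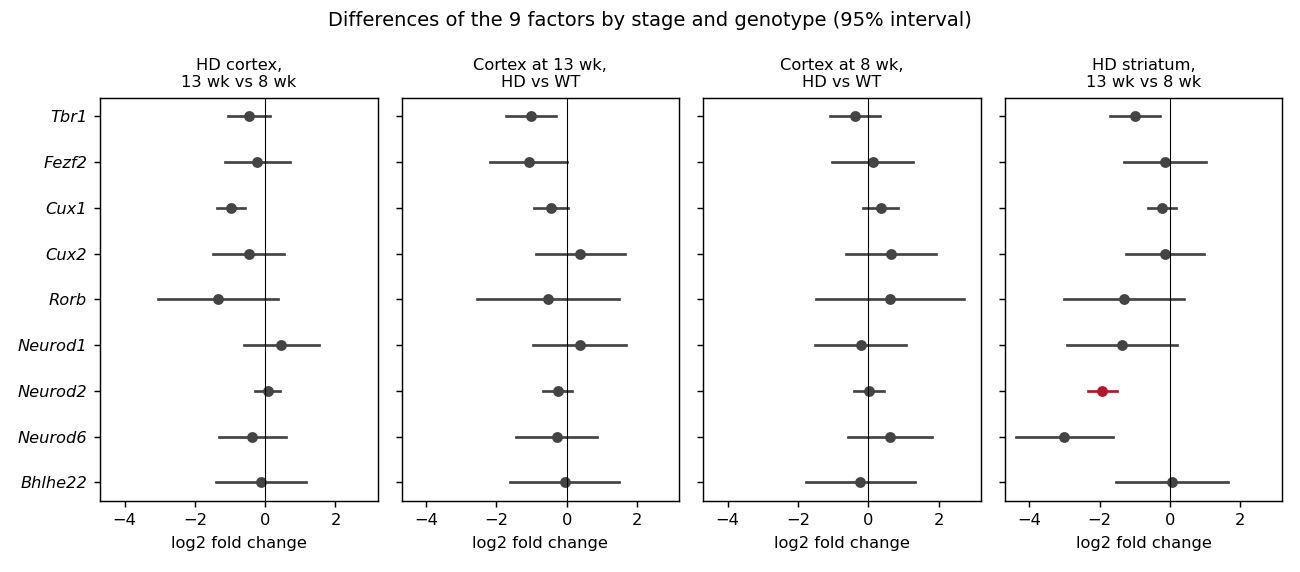
Log2 fold change (points) and 95% interval (lines) of the 9 factors in HD cortex by stage, in cortex by genotype at 13 and 8 weeks, and in HD striatum by stage; red marks an adjusted p under 0.05. Neurod2 in HD striatum, at -1.93, is the only red point.

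In striatum, where the factors are low, 1 of the 9 differed between the HD stages, while 0.319% of all genes did (49 genes). Neurod2 measured 3.54 and 3.31 CPM after onset (38 and 31 counts) and 14.0 and 12.1 CPM before (120 and 113 counts). It fell by 1.93 on the log2 scale (SE 0.18, edgeR adjusted p = 0.00539). Both later libraries were below both earlier ones, and the libraries of a stage were close. WT striatum had 37.4 CPM (372 counts) at 8 weeks and 3.63 CPM (38 counts) at 13 weeks, in libraries that also differ in sex. This was a 10.3-fold lower level with a 95% counting interval of 7.37 to 14.8, which covers counting error only. HD and WT striatum at 13 weeks differed by -0.08 (95% interval -0.62 to 0.45).

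The call of Neurod2 held without replicate 2 of the pre-symptomatic HD striatum (log2 fold change -2.03, edgeR adjusted p = 2.12e-05) and without the WT striatum at 8 weeks (0.00508). It was lost without either post-symptomatic HD striatum library (0.0903 and 0.149), without replicate 1 of the pre-symptomatic HD cortex (0.0505) and when the striatal libraries were fitted alone (0.528). The change in HD cortex minus that in HD striatum was 2.00 for Neurod2 (SE 0.24, edgeR adjusted p = 0.165), where 0 of the 9 factors and 0% of all genes passed. At an unadjusted p under 0.05 there were 3 factors and 521 genes, and DESeq2 called 6 genes, of which Neurod2 (adjusted p = 0.000416) and Neurod6 (0.00622) were 2. It also passed without replicate 1 or replicate 2 of the pre-symptomatic HD striatum (0.000844 and 0.000788).

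Neurod6, Tbr1 and Cux1 were also lower in both later HD striatal libraries than in both earlier ones. The share of all genes with this separation was not counted in striatum. Cux1 measured 71.4 and 75.2 CPM after onset and 91.5 and 79.3 CPM before. WT striatum had 74.5 CPM of Cux1 at 8 weeks and 77.4 CPM at 13 weeks. Neurod6 measured 1.49 and 0.107 CPM after onset (16 counts and 1 count) and 7.58 and 5.91 CPM before (65 and 55 counts). Summed over each pair, it was 7.95-fold lower after onset, with a 95% counting interval of 4.76 to 14.1. That interval covers counting error only and not the spread between libraries. The fitted log2 fold change of Neurod6, -3.0 (SE 0.59), did not pass the test (edgeR adjusted p = 0.0929). It passed with DESeq2 (1.45e-07), without replicate 1 of the post-symptomatic HD striatum (0.0399) and without replicate 1 or 2 of the pre-symptomatic one (0.0326 and 0.0169). WT striatum had 16.4 CPM at 8 weeks and 0.668 CPM at 13 weeks. Tbr1 measured 4.93 and 2.13 CPM after onset and 6.77 and 7.53 CPM before, with 26.4 and 4.39 CPM in WT striatum at 8 and 13 weeks (log2 fold change in HD -1.0, SE 0.32, edgeR adjusted p = 0.252).

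Slc17a7, which striatal neurons hardly express, moved with Neurod2, Neurod6 and Tbr1. It measured 2.70 and 5.66 CPM in post-symptomatic HD striatum, 25.1 and 89.7 CPM in pre-symptomatic HD striatum, 66.2 CPM in WT striatum at 8 weeks and 7.06 CPM at 13 weeks. Of the 16 cortical excitatory markers, which include Neurod2 and Tbr1, 8 were lower in both later HD libraries and none was at 0. Without those 2 genes 6 of 14 were lower. The share of all genes lower in both was not counted in striatum, and in HD cortex it was 28.1%. The 16 markers summed to 3142 and 3696 CPM after onset and to 8659 and 4381 CPM before. Most of it came from Nrgn and Camk2a, which the striatum also expresses. The part of cortical RNA in the striatal values of Neurod2, Neurod6 and Tbr1 was not tested. The 12 striatal projection neuron markers summed to 1498 and 1501 CPM after onset and to 7690 and 2469 CPM before, the lower one in replicate 2.

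**Figure D5:**
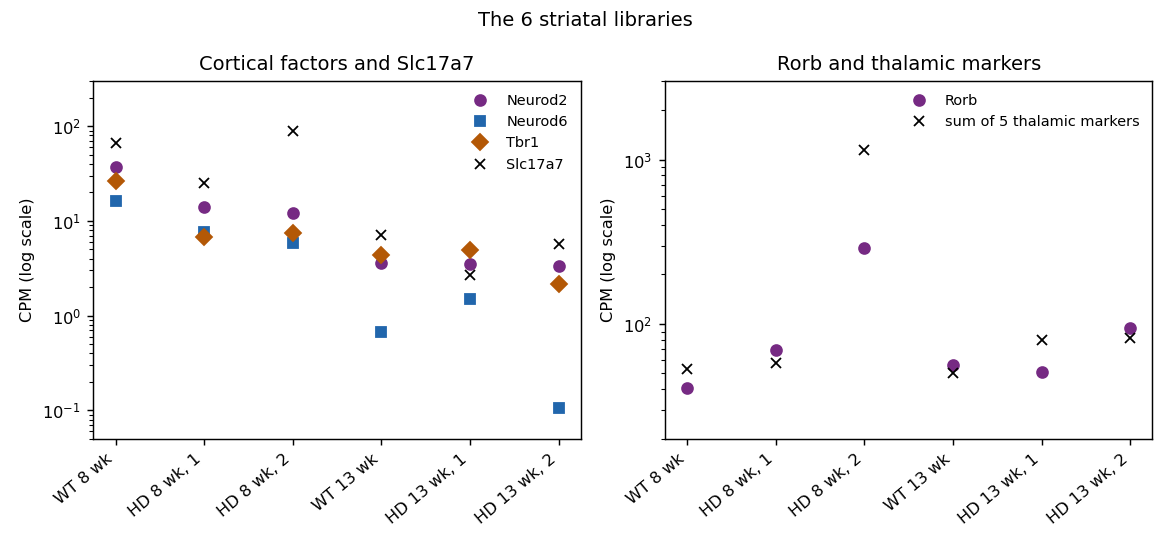
CPM on a log scale in the 6 striatal libraries of Neurod2, Neurod6, Tbr1 and Slc17a7 (left) and of Rorb and the sum of 5 thalamic markers (right). On the left all 4 genes are higher in the 3 libraries at 8 weeks than in the 3 at 13 weeks, and on the right replicate 2 of the HD striatum at 8 weeks stands apart at 289 and 1140 CPM.

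For Rorb, Neurod1, Cux2 and Bhlhe22 the striatal change moved most with replicate 2 of the pre-symptomatic HD striatum. Rorb measured 51.1 and 93.9 CPM after onset and 69.9 and 289 CPM before, and its log2 fold change went from -1.31 to 0.05 without that library. Its thalamic markers, all 5 of them above every other striatal library, are given above, and Rorb is known from thalamic neurons as well as from layer 4. Their part in the Rorb value was not tested. Neurod1 went from -1.37 to 0.26, Cux2 from -0.14 to 1.02 and Bhlhe22 from 0.06 to 1.75 (edgeR adjusted p without it 0.889, 0.186 and 0.0781). Without replicate 1 of that group Neurod1 passed (-2.10, edgeR adjusted p = 0.0126). Fezf2 (-0.14, 95% interval -1.30 to 1.02, and -1.20 to 0.44 with single libraries left out) and Cux1 (-0.22, -0.62 to 0.18) did not pass. In striatum at 13 weeks 0 of the 9 factors differed between HD and WT, against 0.724% of all genes (111 genes). That gene count moved widely when replicate 2 of the pre-symptomatic HD striatum was left out. At an unadjusted p under 0.05 edgeR gave 0 factors and 2226 genes, and DESeq2 called 0 factors and 516 genes.

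The regions together gave more calls over all genes but none among the 9 factors. These fits took each library as independent. If both regions of a number came from 1 mouse, their calls rest on fewer mice than libraries. Between the HD stages 6.45% of 13944 genes passed and 0 of the 9 factors did, although all 9 log2 fold changes were negative, with a median of -0.59 against 0.00 for all genes. Within the regions the signs were mixed, since Neurod1 and Neurod2 were positive in HD cortex and Bhlhe22 in HD striatum. The striatal change of Neurod1 turned positive without replicate 2 of the pre-symptomatic HD striatum. Over both regions, at an unadjusted p under 0.05, edgeR gave 3 factors and 3145 of all genes, and DESeq2 called 2 factors and 1680 genes. Cux1 had the smallest adjusted p (log2 fold change -0.59, SE 0.17, edgeR adjusted p = 0.0734), and it passed without replicate 1 or 2 of the pre-symptomatic HD striatum (0.0477 and 0.0103). Between HD and WT mice over both regions 7.36% of genes passed at 13 weeks and 2.1% at 8 weeks, and 0 of the 9 factors at either age. At an unadjusted p under 0.05 edgeR gave 1 factor at each age, Fezf2 at 13 weeks and Tbr1 at 8 weeks. All genes under it were 3281 and 2049. DESeq2 called 0 factors and 1794 genes at 13 weeks and 1 factor and 674 genes at 8 weeks. The 309 genes at 8 weeks became 0 without the WT striatum at 8 weeks.

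Replicate 2 of the pre-symptomatic HD striatum bore on most counts. Without it the genes called were 887 (1 factor) in cortex at 13 weeks, 164 (0 factors) in cortex at 8 weeks, 75 (0 factors) for the change in HD minus WT, 1084 (2 factors) in HD striatum and 165 (1 factor) for cortex minus striatum. Over both regions they were 1518 (1 factor) between HD stages, 1834 (0 factors) at 13 weeks and 444 (0 factors) at 8 weeks.

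Some other genes of the pathway passed between the HD stages over both regions, where 6.45% of all genes did. Of the 25 other layer factors 2 were lower and none higher, Mef2c (log2 fold change -0.73, SE 0.12, edgeR adjusted p = 0.00936) and Id2, an inhibitor of helix-loop-helix factors (-0.69, SE 0.14, 0.0222). Of the 14 partners and inhibitors 3 were lower, Cbfa2t3 (-0.93, SE 0.17, edgeR adjusted p = 0.0134), the Notch effector Hey1 (-0.87, SE 0.19, 0.0266) and Id2. Of the 9 downstream genes tested 4 were lower, the cadherin Cdh11 (-0.77, SE 0.16, edgeR adjusted p = 0.0223), the NMDA receptor subunit Grin2b (-0.72, SE 0.11, 0.00649), Ephb1 (-0.59, SE 0.14, 0.0355) and Auts2 (-0.52, SE 0.10, 0.0165). Grin2b passed with each library left out. The call of Mef2c was lost without either post-symptomatic HD cortex library (0.0567 and 0.0529), and that of Cbfa2t3 without replicate 2 of that group or either pre-symptomatic HD cortex library (up to 0.0641). The calls of Id2 (up to 0.0834), Hey1 (0.101), Ephb1 (0.125) and Auts2 (0.0739) were lost without any 1 of the 4 HD cortex libraries or replicate 1 of the post-symptomatic HD striatum. That of Cdh11 (up to 0.101) was lost without either post-symptomatic HD striatum library, replicate 1 of the post-symptomatic or replicate 2 of the pre-symptomatic HD cortex.

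Between HD and WT over both regions 7.36% of all genes passed at 13 weeks. Of the 25 other layer factors 2 were lower in HD, Etv5 (log2 fold change -0.90, SE 0.21, edgeR adjusted p = 0.0226) and Mef2c (-0.61, SE 0.15, 0.0284). Of the 14 partners and inhibitors 2 were lower, Hey1 (-0.86, SE 0.22, edgeR adjusted p = 0.0334) and Cbfa2t3 (-0.78, SE 0.20, 0.0339). Of the 10 downstream genes 1 was higher, Stim1, a calcium sensor of the endoplasmic reticulum (1.44, SE 0.31, edgeR adjusted p = 0.0158). Each of these 5 calls was lost without either WT library at 13 weeks, with adjusted p-values of 0.107 to 0.384, and those of Etv5, Mef2c, Hey1 and Cbfa2t3 also without replicate 2 of the post-symptomatic HD cortex (0.0634 to 0.0818). Replicate 1 of that group took the calls of Etv5, Mef2c and Hey1, and replicate 1 of the post-symptomatic HD striatum or of the pre-symptomatic HD cortex those of Mef2c, Hey1 and Cbfa2t3. Replicate 2 of the pre-symptomatic HD cortex took those of Hey1 and Cbfa2t3, and replicate 2 of the post-symptomatic HD striatum that of Cbfa2t3 (0.0502 to 0.0812 over these).

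At 8 weeks, where 2.1% of all genes passed, Stim1 was again higher in HD (log2 fold change 1.55, SE 0.31, edgeR adjusted p = 0.0260). It ranged from 28.5 to 62.4 CPM in the 8 HD libraries and from 13.4 to 20.4 CPM in the 4 WT libraries, which did not overlap. The call at 8 weeks was lost without either pre-symptomatic HD cortex library (0.0763 and 0.0754) or either WT library at 8 weeks (0.320 in striatum and 0.0886 in cortex). No layer factor and no partner or inhibitor passed at 8 weeks, and the smallest p-values were those of Lmo4 (-0.76, SE 0.33, edgeR adjusted p = 0.331) and Cbfa2t2 (-0.48, SE 0.23, 0.378).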

How the data were processed

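The authors deposited raw read counts per gene symbol, 1 table per library, for 12 libraries from striatum and cortex. The submitters' processing notes name Bowtie2, bedtools and the build mm10. Versions, annotation, counting rule and strand setting are not given in the sources used here. The 44 repeated symbols and 4306 gene rows without any count do not touch the 9 factors, and Ccn2 is listed under its older name Ctgf.

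Groups were taken from the sample labels. Counts were scaled by TMM and tested with the robust quasi-likelihood test of edgeR 4.0.16 in R 4.3.3, after the edgeR filter on low counts (minimum count 10), with Benjamini-Hochberg adjustment over all genes and a threshold of 0.05. Comparisons within a region came from 1 fit of the 8 groups of genotype, age and region, in which only the 4 HD groups have replicates, so a single WT library is assumed to vary like HD libraries. Comparisons between the regions and over both regions came from additive fits, which took each library as independent. The study's methods give no test for these tables. Scripts were tested on simulated counts with 200 genes changed by 1.5 on the log2 scale. Between HD stages in cortex edgeR found 102 of them (5.56% of its calls false) and DESeq2 113 (22.1%). For HD against WT cortex at 13 and 8 weeks edgeR found 34 and 33 (17.1% and 17.5% false). DESeq2 found 82 and 73 (20.4% and 24.7%). A factor that did not pass there may still differ. The fit of cortex libraries alone found 141 between HD stages (18% false). For HD against WT cortex at 13 and 8 weeks it found 150 and 110 (6.83% and 8.33% false).

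Alternatives were DESeq2 1.42.0, upper-quartile scaling, no filter or at least 1 CPM in every library, the replicate number as a block, sex (read from Xist and Y-linked counts) as a term, leaving out Rn45s, leaving out each library, and fitting a region alone. The 9 factors and all gene lists were chosen with earlier results of these data known. From each list, up to 4 genes with the largest absolute log2 fold change among those past the threshold are named, or, where none passed, the gene with the smallest p. A gene that this rule would name is not reported here. Likeness was the Pearson correlation of log2 CPM (prior count 2) with the factors' mean, for the 5 closest genes of at least 5 CPM. Counting intervals are exact at 95% and cover counting error only.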

Additional observations from a re-analysis of the deposited data

Results flagged for a closer look

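Over the 6 libraries of a region, which mix genotypes and ages, 1 library stood apart from the others in 7 of 18 sets of values, with a gap to the nearest library of more than 0.625 of the range. Chance gives such a gap in about 1 set of 20, and groups that differ give it as well. In striatum, Tbr1 stood apart at 26.4 CPM and Neurod2 at 37.4 CPM in the WT library at 8 weeks. Rorb stood apart at 289 CPM and Neurod1 at 3.66 CPM in replicate 2 of the pre-symptomatic HD striatum, the library with high thalamic markers. In cortex, Fezf2 stood apart at 94.2 CPM and Neurod2 at 547 CPM in the WT library at 13 weeks, which is the only WT library of its group. Neurod1 stood apart at 44.4 CPM in replicate 1 of the post-symptomatic HD cortex.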

How the results depend on the processing

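With 1 WT library per group and 2 per HD group, the fit of the 8 groups estimated the spread from 4 pairs. The additive fits estimated it from all of their libraries. Counts of called genes moved widely. Over 928 values of the 9 factors under the alternatives, from 49 of the 99 tests of a factor in a comparison, 873 kept direction and side of the threshold, 4 lost it, 36 gained it and 15 turned direction. Low striatal counts limit Neurod1, Neurod6 and Bhlhe22 there. The cause of the changes below was not tested.

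Genes called between HD stages in cortex were 468 with DESeq2, 58 with upper-quartile scaling, 241 without a filter and 2263 with cortex libraries alone. Factors called were 1 with DESeq2, without a filter, at 1 CPM or without Rn45s, and 3 with cortex libraries alone. For cortex at 13 weeks, HD against WT, genes called were 214, 84 without a filter, 11 at 1 CPM, 7 with sex as a term and 1947 with cortex libraries alone, with 2 factors in the last. At 8 weeks they were 53, 10 without a filter and 972 with cortex libraries alone, with 1 factor in the last. For the change in HD minus that in WT they were 19 with DESeq2, 1 with the replicate block and 481 with cortex libraries alone, with 2 factors in the last.

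Between HD stages in striatum genes called were 364 with DESeq2, 25 with upper-quartile scaling or at 1 CPM, 195 without a filter, 32 without Rn45s and 0 with striatal libraries alone, and factors called were 2 with DESeq2 and 0 with striatal libraries alone. In striatum at 13 weeks they were 516, 306 without a filter and 0 with striatal libraries alone. For the change in cortex minus that in striatum they were 6 with DESeq2 (2 factors) and 1 without a filter (1 factor). Over both regions DESeq2 called 1680 genes and 2 factors between HD stages (1 factor without a filter), 1794 genes at 13 weeks, and 674 genes and 1 factor at 8 weeks.

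Leaving out 1 library gave 2043 to 3709 genes (7 to 8 factors) between regions, 0 to 1233 (0 to 1) between HD stages in cortex, 0 to 889 (0 to 1) at 13 weeks, 0 to 164 at 8 weeks, 0 to 75 for the change in HD minus WT, 0 to 1111 (0 to 3) in HD striatum, 1 to 1469 in striatum at 13 weeks and 0 to 192 (0 to 2) for cortex minus striatum. Over both regions it gave 211 to 1518 (0 to 2), 29 to 1834 and 0 to 444 (0 to 1).

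The log2 fold change of Bhlhe22 at 13 weeks in cortex turned to 0.0083 with upper-quartile scaling and 0.0013 with sex as a term, and that of Neurod2 at 8 weeks to -0.0016 with DESeq2 and -0.018 without Rn45s. With 1 library left out Bhlhe22 ranged from -0.57 to 0.22 between HD stages in cortex and from -0.50 to 0.29 at 13 weeks, and Fezf2 from -0.053 to 0.28 at 8 weeks. In HD striatum the ranges were -1.20 to 0.44 for Fezf2, -0.77 to 1.02 for Cux2, -2.0 to 0.051 for Rorb, -2.10 to 0.26 for Neurod1 and -0.68 to 1.75 for Bhlhe22.

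Replicate numbers are shared between the HD groups, but same-numbered libraries deviated together with correlations of only 0.00487 to 0.172 over 6 pairs of groups, so they share a number and sex but are not treated as pairs. With the replicate block, which equals the sex term in HD libraries, 3154 genes and 8 factors were called between regions, Rorb included (log2 fold change 1.40, edgeR adjusted p = 0.0328), and 120 genes and no factor between HD stages in cortex.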
